A study of Sus scrofa with 15 samples.

Results

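The genes described here are 10 immunoglobulin-family adhesion and contact molecules, followed across 3 natural killer (NK) cell populations of the pig. They are the intercellular adhesion molecules ICAM1, ICAM2 and ICAM3, the adhesion molecules VCAM1, ALCAM and PECAM1, the small glycoproteins THY1 and CD99, and the ligand and receptor pair CD200 and CD200R1. They were chosen by gene symbol, and 10 of 10 had an entry among the 29886 genes counted. CD99 is grouped with them by its role in adhesion, although its protein has no immunoglobulin domain. The populations were the CD8α high NK cells of blood, the CD8α high NK cells of the liver, and the CD8α dim NK cells of the liver, called liver-resident (lrNK) cells. Each of 5 pigs, aged 6 months, gave all 3 populations, so there were 15 libraries. The animals carried no transgene or treatment that the sources name. All cells were sorted as negative for CD3, a T cell protein, and CD172a, a myeloid protein, and were then separated by their CD8α level. The liver was first perfused through the portal vein, and the cells were then collected from a further, final flush. The liver cells are therefore those that this last flush releases.

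Adhesion molecules of the immunoglobulin superfamily carry one or more immunoglobulin-like domains outside the cell and bind integrins or each other. ICAM1, ICAM2 and ICAM3 bind the integrin LFA-1 (the chains ITGAL and ITGB2), VCAM1 binds the integrin chain ITGA4 paired with ITGB1, and PECAM1 and CD99 bind themselves at endothelial junctions while leukocytes leave the blood. In the liver, NK cells lie in the sinusoids, narrow vessels whose lining displays ligands of this family.

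The libraries held between 2003499 and 5680221 counts each, which sets the precision for the rarer of the 10 genes. Levels are given in CPM, the counts scaled to a common library total that edgeR's TMM factor adjusts. The reads come from the 3′ end of transcripts, so a CPM does not grow with transcript length, but levels are compared here only within a gene. CD8A, which encodes the sorting marker, was lower in lrNK cells than in blood NK cells by a log2 fold change of -3.43, and 9 of 9 NK marker genes passed the filter on low counts. In each lrNK comparison 3 of these 9 were called higher (NCR1, KLRB1 and NKG7) and 2 lower (GZMB and CD8A). On principal components of all libraries, the lrNK library of pig 3 stood apart from the other lrNK libraries on the second component (35.2 against -16.0 to -3.16), and the liver CD8α high library of pig 1 lay nearest to lrNK cells on the first (-8.51 against -37.2 to -24.9 in the other 4). Results of the 10 genes whose call changes, or whose fold moves by over 1.5 times, without either library are given with and without it. B cell marker genes were also higher in lrNK cells, with a summed level of 251 to 778 CPM over the 7 markers counted, against a sum of 11.3 to 123 CPM for blood and one of 1.43 to 48.0 CPM for the liver CD8α high libraries. Of the B cell markers, 6 passed the filter on low counts and all 6 were called higher in lrNK cells in both comparisons, while CD79A was at 0 in every library. The 4 dendritic cell markers counted summed to 168 to 323 CPM in lrNK libraries, 32.9 to 91.3 CPM in blood libraries and 47.1 to 118 CPM in liver CD8α high libraries, with CLEC9A at 0 in all. The T cell markers summed to 109.9 to 593 CPM in lrNK libraries, 636.5 to 1199.7 CPM in blood libraries and 714 to 1076 CPM in liver CD8α high libraries. Most of this was CD3G, called lower in lrNK cells in both comparisons, and CD4, CD5 and CD28 were at 0 in every library. A population's level cannot tell more RNA per cell from more cells that hold the RNA.

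**Figure D1:**
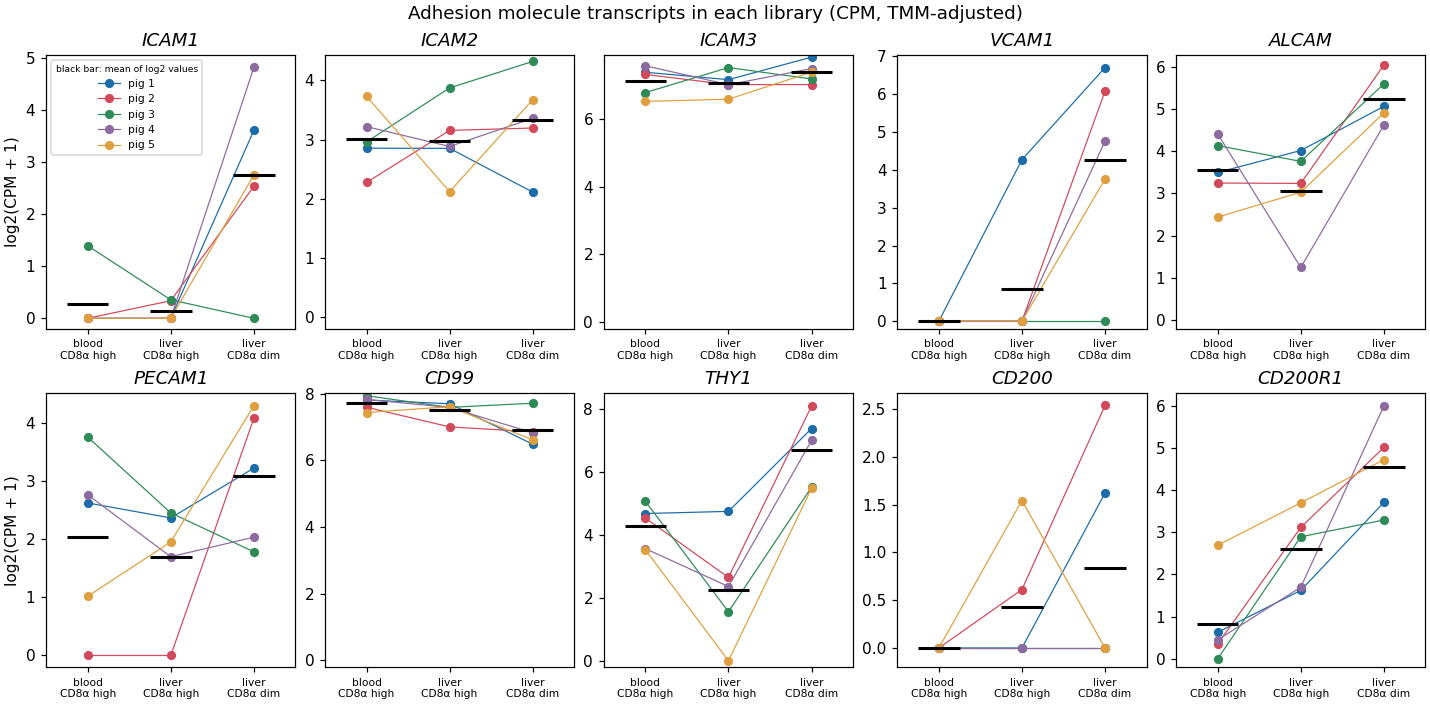
Level of each of the 10 genes in every library, as log2(CPM + 1) on the vertical axis, for blood NK cells, liver CD8α high NK cells and lrNK cells. Points are libraries, lines join the libraries of a pig coloured by pig, and black bars are means of the log2 values (n = 5). THY1 and ALCAM show lrNK points above all points of both other populations, and VCAM1 and ICAM1 are at or near 0 outside lrNK cells except for VCAM1 in 1 liver CD8α high library.

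Compared with blood NK cells, lrNK cells had higher VCAM1, THY1, CD200R1 and ALCAM transcripts and lower CD99 transcripts. Of the 10 genes, 8 passed the filter on low counts, and 5 of these 8 were called at an adjusted p under 0.05, 4 higher and 1 lower. Over all 10939 genes tested in that comparison, 18.2% were called, 8.62% as higher and 9.60% as lower. The median log2 fold change was 1.34 over the 8 genes and 0.01 over all genes tested. A gene that passes the filter only through populations where it is high has to differ. VCAM1 reached the filter's level in 4 lrNK libraries, 1 liver CD8α high library and 0 blood libraries. Against blood this holds for VCAM1. It passed only with that liver CD8α high library, as ICAM1, at the level in 4 lrNK libraries alone, did not pass. CD200R1 reached the filter's level in 5, 3 and 1 library of the lrNK, liver CD8α high and blood populations. The counts of calls therefore describe the genes and test nothing about them as a group.

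Compared with liver CD8α high NK cells, lrNK cells had higher THY1, CD200R1 and ALCAM transcripts, so 3 of the 8 genes were called higher and 0 lower. Of all genes tested in that comparison, 14.6% were called, 6.96% as higher and 7.68% as lower. The median log2 fold change was 1.98 over the 8 genes and 0.02 over all genes. With the pig as a block in the fit, VCAM1 and CD99 were called as well, which made 5 genes. The comparisons share libraries and are therefore not independent of each other.

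**Figure D2:**
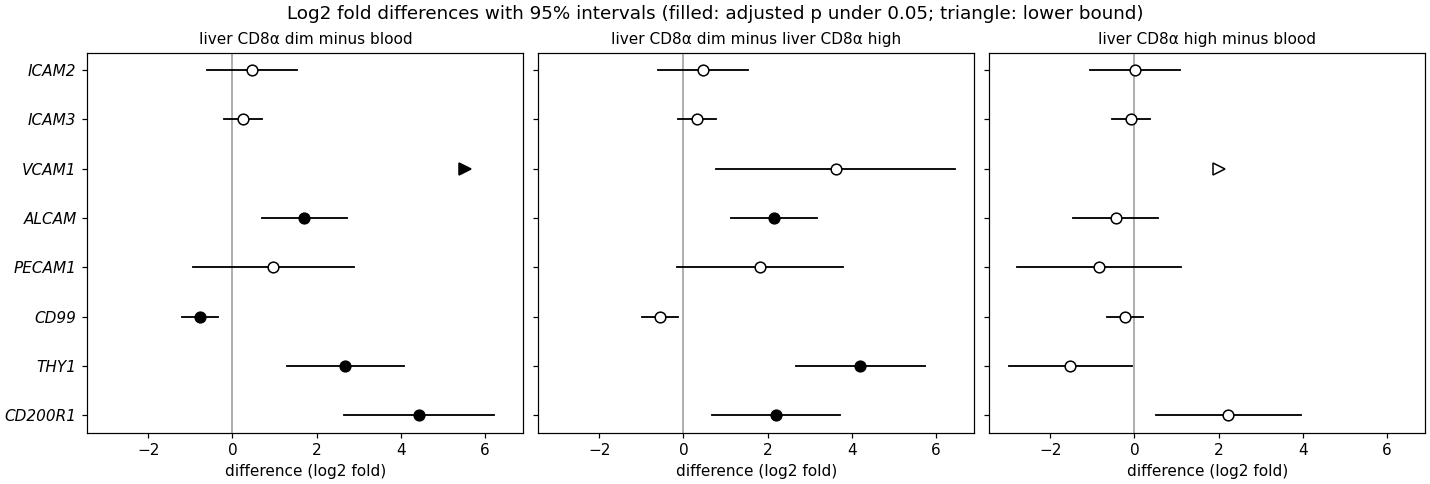
Log2 fold change of the 8 genes that passed the filter on low counts, with 95% confidence intervals, for lrNK against blood NK cells, lrNK against liver CD8α high NK cells, and liver CD8α high against blood NK cells (edgeR, n = 5 pigs per population). Filled symbols have an adjusted p under 0.05 and triangles are lower bounds for VCAM1 against blood, where every library was at 0. Filled symbols appear in both lrNK comparisons for THY1, CD200R1 and ALCAM, and in none of the liver CD8α high against blood comparisons.

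VCAM1, a ligand of the ITGA4 and ITGB1 integrin best known from activated endothelium, was detected almost only in lrNK cells. It had 0 counts in each of the 5 blood libraries, where 3 counts, the upper limit that a count of 0 allows, would be 0.813 to 1.08 CPM. In liver CD8α high NK cells, pig 1 had 53 counts (18.3 CPM) and the other 4 pigs had 0. In lrNK cells, VCAM1 was at 103, 66.7, 0, 26.1 and 12.5 CPM in pigs 1 to 5, from 249, 139, 0, 93 and 48 counts. The lrNK library without VCAM1 is that of pig 3, and the single positive liver CD8α high library and the highest lrNK library came from the same animal, pig 1. The lrNK mean of 41.8 ± 42.6 CPM (SD, n = 5) was at least 45.8-fold higher than blood, taking 3 counts per blood library as the bound, and edgeR gave a Benjamini-Hochberg adjusted p of 0.00428. No blood library reached the filter's level, so this p describes the difference and is no independent test of it. The call against blood was lost with a robust dispersion (edgeR adjusted p = 0.0512). Without pig 1, or in a fit of only lrNK and blood libraries, the gene did not pass the filter. The bound fell to 28.1-fold without pig 1.

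Against liver CD8α high NK cells, the VCAM1 difference was 3.61 on the log2 scale (SE 1.34, 95% interval 0.78 to 6.44), higher in 4 of 5 pigs, with an edgeR adjusted p of 0.0876. With the pig as a block it was 5.57 with an edgeR adjusted p of 0.00191. Without the liver CD8α high library of pig 1, edgeR's adjusted p was 0.00109. The rest of that population had 0 counts, so this p sets lrNK cells against 0 and no fold is given. Without the lrNK library of pig 3 the difference was 3.96 with an edgeR adjusted p of 0.0245. Of 13 alternatives, all with the same direction, 4 gave a call, the other being the fit without the filter. The other 9 gave none, with an adjusted p of up to 0.543 (DESeq2). Of markers of cell types that are known for VCAM1, the endothelial genes VWF, CDH5, STAB2 and LYVE1, the macrophage genes CD163, MARCO, C1QA and VSIG4, and the mesenchymal genes DCN, PDGFRB and RGS5 were at 0 in every lrNK library. In all, 6 of 9 endothelial, 6 of 11 myeloid and 5 of 7 mesenchymal markers were at 0 there, while the others had some counts. The myeloid gene LYZ, which encodes lysozyme, was higher in lrNK cells (mean 8.56 CPM) than in liver CD8α high NK cells (0.365 CPM, edgeR adjusted p = 0.0272). The summed level in lrNK cells was 0 to 21.4 CPM over 9 endothelial genes, 0 to 25.6 CPM over 11 myeloid genes and 0 to 19.5 CPM over 7 mesenchymal genes. The endothelial and mesenchymal maxima were in the library of pig 3, which had no VCAM1, and the other 4 lrNK libraries had 0 to 2.53 and 0 CPM. In blood NK cells these sums were 1.63 to 5.96, 0.341 to 8.14 and 0 to 3.52 CPM, and in liver CD8α high NK cells they were 0 to 4.49, 0.717 to 3.27 and 0 CPM. VCAM1 had an r of 0.69 with the summed B cell markers over the 15 libraries, and 0.48 after the population means were removed. The part of any of these cells in the VCAM1 level was not tested.

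ALCAM, also called CD166, binds CD6 and other ALCAM molecules. Blood NK cells had 10.3, 8.50, 16.6, 20.2 and 4.44 CPM in pigs 1 to 5. The liver CD8α high libraries had 15.2, 8.44, 12.5, 1.38 and 7.17 CPM. In lrNK cells the levels were 32.4, 64.8, 47.3, 23.6 and 29.0 CPM. Every lrNK library lay above every library of both other populations, which held for 6.18% of all genes tested in the comparison with blood and for 5.18% in the comparison with liver CD8α high NK cells. ALCAM was 3.27-fold higher in lrNK than in blood NK cells (log2 fold change 1.71, SE 0.48, edgeR adjusted p = 0.0160) and 4.44-fold higher than in liver CD8α high NK cells (2.15, SE 0.49, edgeR adjusted p = 0.00410). Both differences had the same direction in 5 of 5 pigs. The call against blood was lost without pig 2 (log2 fold change 1.35, edgeR adjusted p = 0.134) and without pig 5 (1.61, edgeR adjusted p = 0.0569), whereas the call against liver CD8α high NK cells held with any single pig left out. Across the 15 libraries the log2 level of ALCAM moved with the summed B cell markers (Pearson r = 0.86, and 0.63 after the population means were removed), as a description of libraries that share pigs and populations. The part of B cells in the ALCAM difference was not tested.

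ICAM1, which cytokines induce on many cell types, was found at low counts and almost only in lrNK cells. Its counts in lrNK cells were 27, 10, 0, 97 and 22 in pigs 1 to 5 (11.2, 4.80, 0, 27.2 and 5.75 CPM). In blood NK cells the counts were 0, 0, 6, 0 and 0, and in liver CD8α high NK cells they were 0, 1, 1, 0 and 0. As for VCAM1, the lrNK library of pig 3 was the one at 0, so the ranges overlapped in both comparisons. Counts of the myeloid gene LYZ in the lrNK libraries were 16, 9, 0, 91 and 24, highest in pig 4 and at 0 in pig 3 as for ICAM1. LYZ was not called against blood (edgeR adjusted p = 0.305), and of the other 10 myeloid markers 6 were at 0 in all lrNK libraries, among them VSIG4, which had 15 counts in blood and 14 in liver CD8α high NK cells. The summed B cell markers in the lrNK libraries of pigs 1 to 5 were 481, 713, 251, 778 and 286 CPM. They too were highest in pig 4 and lowest in pig 3, whereas pig 2 was above pig 1 for them and below it for ICAM1. The part of myeloid or B cells in the ICAM1 level was not tested.

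ICAM1 did not pass the filter on low counts and has no value in the fit across all genes. Summed over the 5 libraries, lrNK cells had 156 counts and liver CD8α high NK cells 2, a ratio of 113 per adjusted total with an exact counting interval of 30.9 to 945 that covers counting error only. The lrNK library of pig 4 held 97 of the 156 counts, and the ratio was 41.1 without pig 4, 203 without pig 2 and 219 without pig 3. The difference in mean log2(CPM + 1) was 2.47 against blood (exact permutation p = 0.0476, two-sided, from 252 splits) and 2.61 against liver CD8α high NK cells (exact permutation p = 0.0476). That test was added after the data were seen and does not use the pairing by pig. With the pig as a block, in exact sign flips within pigs, the permutation p was 0.125 in both comparisons, where 5 pairs can give no p below 0.0625, and pig 3 was the pig with the opposite sign. Without pig 1, 2, 4 or 5 the exact permutation p was 0.143 in each case, and without pig 3 it was 0.0286, the smallest value that 70 splits can give. The difference from blood was 1.88 without pig 4 and 3.43 without pig 3, and that from liver CD8α high NK cells was 3.35 without pig 3. In an edgeR fit without the filter, the adjusted p was 0.00674 against blood and 0.00112 against liver CD8α high NK cells.

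ICAM2, which endothelial cells and resting leukocytes carry constitutively, was at a low level in all 3 populations. Blood libraries ran from 3.84 to 12.3 CPM (mean 7.49 ± 3.13, SD, n = 5), liver CD8α high libraries from 3.34 to 13.7 CPM (7.50 ± 3.82) and lrNK libraries from 3.32 to 19.0 CPM (10.3 ± 5.75). The ranges overlapped almost fully. The log2 fold change of lrNK cells was 0.46 against blood (95% interval -0.61 to 1.53, edgeR adjusted p = 0.614) and 0.46 against liver CD8α high NK cells (-0.61 to 1.53, edgeR adjusted p = 0.662). These intervals still allow a change of over 1 log2 unit upward.

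ICAM3, the ICAM that resting leukocytes express constitutively, was measured from 269 to 753 counts per library. Blood NK cells had 168, 160.3, 110.2, 192 and 91.8 CPM in pigs 1 to 5. Liver CD8α high NK cells had 144, 130.0, 185, 129.8 and 96.0 CPM. The lrNK libraries had 229, 130.1, 146, 181 and 168 CPM. No population was separated from the others, and pig 5 was lowest in both CD8α high populations but not in lrNK cells. The difference was 0.24 against blood (95% interval -0.21 to 0.69, edgeR adjusted p = 0.506) and 0.32 against liver CD8α high NK cells (-0.13 to 0.77, edgeR adjusted p = 0.396), so a change beyond 0.77 on the log2 scale lay outside both intervals.

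ICAM1 and ICAM3 are neighbours on chromosome 2 of Sscrofa11.1 (chr2:69097136-69107722 and chr2:69143063-69150221), 35340 bases apart. ICAM4, a red cell ICAM that lies 887 bases from ICAM1, had 0 counts in all 15 libraries. ICAM2 (chr12:14986636-14991639) lies on chromosome 12, 263339 bases from PECAM1.

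PECAM1, or CD31, marks endothelium, platelets and some leukocytes. It was at 5.15, 0, 12.5, 5.78 and 1.02 CPM in blood NK cells and at 4.14, 0, 4.46, 2.24 and 2.87 CPM in liver CD8α high NK cells. The lrNK levels were 8.31, 15.8, 2.44, 3.09 and 18.5 CPM. Pig 2 had 0 counts in both CD8α high populations and 33 counts in lrNK cells, whereas pigs 3 and 4 had lower levels in lrNK than in blood NK cells. The log2 fold change was 0.97 against blood (95% interval -0.94 to 2.89, edgeR adjusted p = 0.535) and 1.81 against liver CD8α high NK cells (-0.16 to 3.78, edgeR adjusted p = 0.243). Against blood it was 0.35 without pig 5, 0.41 without pig 2 and 1.93 without pig 3. With at most 71 counts per library, neither direction was resolved.

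CD99, a small glycoprotein of leukocytes and endothelial junctions that takes part in transmigration, was the gene with lower levels in lrNK cells. Levels in blood NK cells were 223, 192, 244, 226 and 172 CPM. In liver CD8α high NK cells they were 206, 127, 191, 191 and 194 CPM, and in lrNK cells 88.5, 115, 208, 112 and 96.9 CPM. The lrNK library of pig 3 was the exception, at the level of the CD8α high cells, and the other 4 lrNK libraries lay below every CD8α high library. CD99 was 1.70-fold lower in lrNK than in blood NK cells (log2 fold change -0.77, SE 0.21, edgeR adjusted p = 0.0122), lower in 5 of 5 pigs. Without pig 1 this was -0.64 (edgeR adjusted p = 0.0759) and without pig 4 -0.71 (edgeR adjusted p = 0.0685), and the call did not hold.

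Against liver CD8α high NK cells the CD99 difference was -0.55 (SE 0.21, edgeR adjusted p = 0.0858), lower in 4 of 5 pigs. With the pig as a block it was -0.59 (edgeR adjusted p = 0.0356), and without the lrNK library of pig 3 it was -0.82 (edgeR adjusted p = 0.00121). In RefSeq's Sscrofa11.1 table the CD99 entry is on chromosome Y (chrY:5946851-5983610), is typed as a long noncoding RNA and overlaps LOC110257870, another noncoding gene, over 9402 bases. Mean levels of LOC110257870 were 13.4 CPM for blood, 10.8 CPM for liver CD8α high and 4.03 CPM for lrNK libraries, and how reads of the shared stretch were counted is not given in the sources used here. CD99 counts are therefore uncertain as a measure of the protein-coding transcript.

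THY1, or CD90, is a glycoprotein held in the membrane by a lipid anchor, known from thymocytes, fibroblasts and activated endothelium, and it binds integrins on other cells. It was at 24.7, 22.2, 32.6, 10.8 and 10.6 CPM in the blood NK cells of pigs 1 to 5. In liver CD8α high NK cells it was at 25.9, 5.27, 1.95, 4.14 and 0 CPM. The lrNK levels were 166, 273, 44.8, 128 and 43.6 CPM. Each lrNK library was above every library of the other populations, and among liver CD8α high NK cells only pig 1 was within the range of blood.

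The THY1 difference was 6.42-fold between lrNK and blood NK cells (log2 fold change 2.68, SE 0.67, edgeR adjusted p = 0.00694) and 18.4-fold between lrNK and liver CD8α high NK cells (4.20, SE 0.74, edgeR adjusted p = 3.35e-04), higher in 5 of 5 pigs in both. Without pig 2, the animal with the highest lrNK level, the difference from blood was 2.27 and was not called (edgeR adjusted p = 0.0686). The difference from liver CD8α high NK cells was called with any single pig left out, and was 5.39 without pig 1 and 5.48 without only its liver CD8α high library.

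THY1 moved with B cell transcripts in these libraries. By the likeness of log2 CPM over the 15 libraries, the nearest of all genes tested was MS4A1 (Pearson r = 0.956), a B cell surface gene. Its r with the summed B cell markers was 0.93, and 0.77 after the population means were removed. There were 0.529 to 1.72 THY1 counts per MS4A1 count in blood NK cells (median 0.669) and 0.268 to 0.871 in lrNK cells (median 0.295). In the 4 liver CD8α high libraries with MS4A1 counts the ratio was 0.541 to 3.43 (median 0.870). The ranges overlapped, and the highest ratios of blood and liver CD8α high libraries rest on 18 and 7 MS4A1 counts. The part of B cells in the THY1 difference was not tested.

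**Figure D3:**
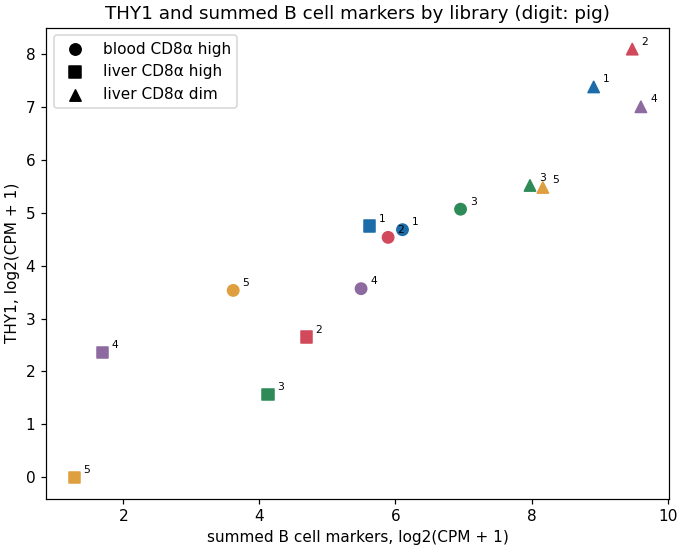
THY1 level on the vertical axis against the summed level of the B cell marker genes on the horizontal axis, both as log2(CPM + 1), with 1 point per library, shaped by population and coloured and numbered by pig. The 5 lrNK libraries lie at the upper right, at 251 to 778 CPM of B cell markers and 43.6 to 273 CPM of THY1, apart from the 10 CD8α high libraries.

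CD200R1 is an inhibitory receptor of leukocytes, and CD200, its ligand, is carried by endothelial, neuronal and lymphoid cells. The receptor was near 0 in blood NK cells, at 0.542, 0.274, 0, 0.361 and 5.46 CPM, and 16 of the 20 blood counts came from pig 5. In liver CD8α high NK cells it was at 2.07, 7.65, 6.41, 2.24 and 11.9 CPM. In lrNK cells it was at 12.0, 31.2, 8.77, 62.6 and 25.3 CPM. The means thus stood in the order 1.33, 6.06 and 28.0 CPM, and each pig alone showed the same order of its 3 libraries. Every lrNK library was above every blood library, while the ranges of both liver populations overlapped.

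CD200R1 was 21.6-fold higher in lrNK than in blood NK cells (log2 fold change 4.43, SE 0.85, edgeR adjusted p = 7.18e-04). This log2 fold change was 3.67 without pig 4 and 6.47 without pig 5, and the call held in both. CD200R1 was 4.61-fold higher than in liver CD8α high NK cells (2.21, SE 0.73, edgeR adjusted p = 0.0475). The second call was close to the threshold. The edgeR adjusted p was 0.0513 with a robust dispersion, 0.0966 without the liver CD8α high library of pig 1, 0.0914 without pig 1, 0.123 without pig 2 and 0.327 without pig 4, where the fold fell to 1.45 on the log2 scale. Blocking on the pig kept the call, at an edgeR adjusted p of 0.0360. CD200R1 had an r of 0.36 with the summed B cell markers, and -0.32 after the population means were removed. Of other cell markers, the dendritic cell genes XCR1 and IRF8 were called higher in lrNK cells in both comparisons, while FLT3 and CLEC9A were at 0 in all lrNK libraries. LYZ was highest in the lrNK library of pig 4, as was CD200R1, and at 0 in that of pig 3, where CD200R1 was at 8.77 CPM. The part of such cells in the CD200R1 level was not tested. CD200R1L, a related gene 30215 bases away, had 0 counts in both CD8α high populations and 0 to 8 counts per lrNK library.

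CD200 itself was barely detected and did not pass the filter. It had 0 counts in all blood libraries, 0, 2, 0, 0 and 8 counts in liver CD8α high NK cells and 5, 10, 0, 0 and 0 counts in lrNK cells. Only pig 2 had counts in both liver populations. No difference was called in the edgeR fit without the filter, with an adjusted p of 0.115 for lrNK against blood, 0.752 for lrNK against liver CD8α high and 0.627 for liver CD8α high against blood NK cells. With so many libraries at 0, permutation of the libraries could not give a low p in the comparisons with blood. Between lrNK and liver CD8α high NK cells the exact permutation p was 0.563. The receptor (chr13:146953135-146994325) and the ligand (chr13:147465858-147485818) lie on the same chromosome, 471532 bases apart.

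Between liver CD8α high and blood NK cells, 0 of the 8 genes were called by edgeR after adjustment, and 0 by DESeq2. Of all genes tested, 0.0640% were called by edgeR. At an unadjusted edgeR p under 0.05 there were 3 of the 8, CD200R1, VCAM1 and THY1, where 5.02% of all genes tested passed. CD200R1 was higher in the liver population in 5 of 5 pigs by 2.23 on the log2 scale (95% interval 0.51 to 3.95, edgeR adjusted p = 0.772), and by 3.83 without pig 5. THY1 was at -1.52 (-2.98 to -0.06, edgeR adjusted p = 0.982), at -2.72 without pig 1 and at -2.80 without only its liver CD8α high library. The B cell gene MS4A1 was at -2.09 in the same comparison, below blood in 5 of 5 pigs (edgeR adjusted p = 0.668), and its part in the THY1 value was not tested. VCAM1 differed through the 53 counts of pig 1 alone (edgeR adjusted p = 0.839). The intervals of CD99 (-0.65 to 0.21) and ICAM3 (-0.53 to 0.37) were the narrowest of the 8, whereas those of ICAM2 (-1.06 to 1.07), ALCAM (-1.46 to 0.57) and PECAM1 (-2.79 to 1.11) left room for changes of over 1 log2 unit.

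The wider family and the binding partners of these genes were counted from lists set with earlier results of these data known. Their counts and medians therefore describe these genes and test nothing about them as groups. Of 25 further immunoglobulin-family and related adhesion genes, 23 had an entry and 11 passed the filter. In each lrNK comparison 1 of these 11 was called, as higher, where 8.62% (blood) and 6.96% (liver CD8α high) of all genes were called higher. It was CD47, the ligand of the inhibitory receptor SIRPA, at 453, 372, 279, 466 and 331 CPM in lrNK cells. The blood libraries had 227 to 332 CPM of it, and the liver CD8α high libraries 240.0 to 293 CPM. The lrNK library of pig 3 was again the closest to the other populations. The log2 fold change of CD47 was 0.53 against blood (edgeR adjusted p = 0.0237) and 0.50 against liver CD8α high NK cells (edgeR adjusted p = 0.0359), higher in 5 of 5 pigs in both. The call against blood was lost without pig 1, 2 or 5, and the call against liver CD8α high NK cells without pig 2, 4 or 5. The median log2 fold change of the 11 genes was -0.04 against blood and -0.03 against liver CD8α high NK cells.

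Of 17 integrins, other ligands and membrane linkers that bind the 10 genes, 14 passed the filter. This list too was set with earlier results of these data known. Against blood, 7 of these 14 were lower in lrNK cells and 0 higher, with a median of -0.83, where 9.60% of all genes tested were called lower and the median of all genes was 0.01. The largest were ITGB7 (-2.25, edgeR adjusted p = 3.50e-05) and SPN (-2.25, edgeR adjusted p = 5.16e-09). Others lower against blood were MSN (-1.18), ITGAM (-1.03), ITGA4 (-0.98) and ITGB2 (-0.86). ITGB2 is a chain of LFA-1, the receptor of the ICAMs, and ITGA4 is a chain of the VCAM1 receptor. ITGB1, the other chain of that receptor, is named after its values were seen, at 0.46 against blood (edgeR adjusted p = 0.192) and 0.49 against liver CD8α high NK cells (edgeR adjusted p = 0.191), above in 4 of 5 pigs in both. Against liver CD8α high NK cells the same 7 genes were lower, beside 7.68% of all genes tested, and ITGAD, an integrin chain that binds ICAM3 and VCAM1, was higher (3.80, edgeR adjusted p = 0.00459) from at most 51 counts per library. The T cell marker CD3G was lower in lrNK cells as well (-1.58 against blood and -1.51 against liver CD8α high NK cells), and its part in the partners' values was not tested. CD6, the receptor of ALCAM, had 0 counts in all lrNK libraries and 0 to 8 counts in the CD8α high libraries.

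**Figure D4:**
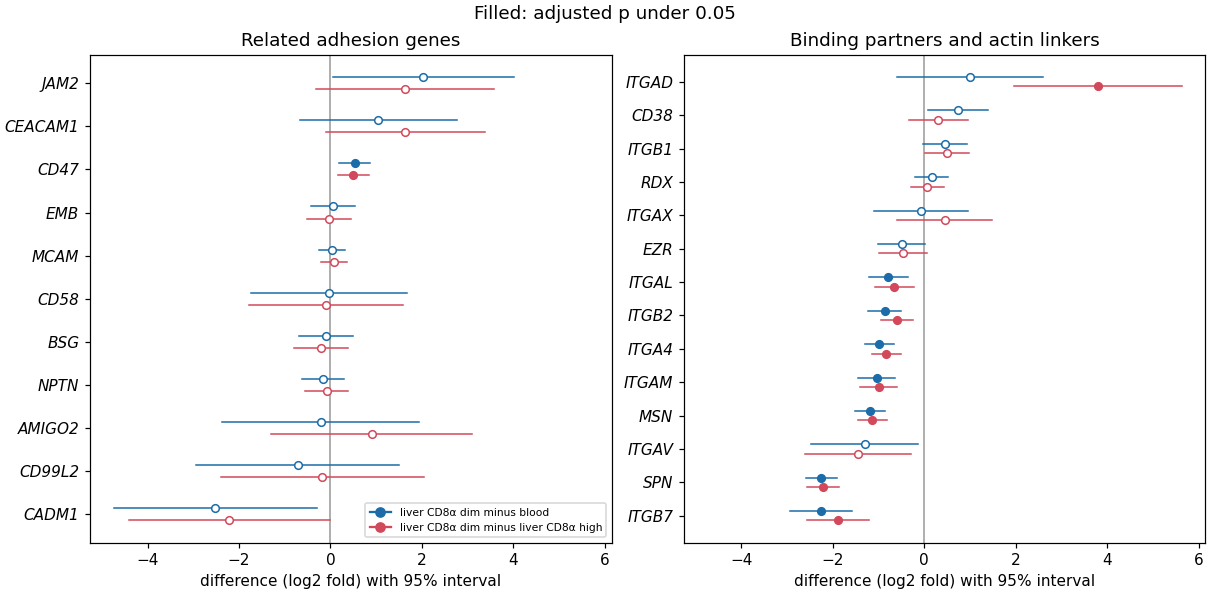
Log2 fold change in lrNK cells for the 11 further adhesion genes and the 14 binding partners that passed the filter, against blood NK cells (blue) and against liver CD8α high NK cells (red), with 95% confidence intervals and filled symbols for an adjusted p under 0.05 (edgeR, n = 5). CD47 carries the filled symbols among the adhesion genes, while 7 partners have filled symbols below 0 in both comparisons and ITGAD lies above 0 against liver CD8α high NK cells.

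Among all genes tested, those whose log2 CPM ran most nearly parallel over the 15 libraries differed from gene to gene. For VCAM1 they were CTGF (r = 0.942), with 31 counts in the liver CD8α high library of pig 1 and 0 in every blood library, and ATP6V0A2 (r = 0.923). For CD200R1 they were ROMO1 (r = 0.902) and MTHFD2 (r = 0.890). ALCAM was nearest to LOC106508719 (r = 0.881), which is annotated as an immunoglobulin constant region, and to GLB1 (r = 0.879). CD99 was nearest to LOC100622568 (r = 0.927), a pseudogene on chromosome 6, and to PLPP5 (r = 0.911). These values describe libraries that share pigs and populations.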

How the data were processed

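RNA of sorted NK cells was sequenced with a QuantSeq 3′ kit. The authors trimmed reads with QuasR, aligned them with Rhisat2 (HISAT2) to Sscrofa11.1 and deposited unnormalized counts per gene. How reads were counted (the tool, the use of strand, reads that align more than once) is not given in the sources used here. All 15 columns were matched by their labels, and 0 columns matched no sample. The main test was that of edgeR 4.0.16 under R 4.3.3 (TMM, default filter by population, quasi-likelihood test, all 15 libraries in 1 fit, Benjamini-Hochberg adjustment over 10939 genes, threshold 0.05), and DESeq2 1.42.0 was an alternative. The standard error is the log2 fold change divided by the square root of F. CPM are counts over the TMM-adjusted total, and r used log2 CPM with a prior count of 2. Genes were named as all 10 chosen, at most 6 called per list and comparison, and the 2 nearest genes of each called one, of which 1 is not reported here. The chosen genes and lists were set with earlier results of these data known. The fit was tested on simulated data. Figures used Python 3.11.15 and matplotlib 3.10.9. Positions and gene types are from RefSeq's table of Sscrofa11.1. The labels and the study's methods give all 3 populations from the same pigs, and the pig was therefore used as a block in a second fit. The mean correlation of deviations was 0.107 within a pig over 15 pairs of libraries and -0.03 between pigs over 60. Library pairs of a population differed beyond sampling noise (chi-square per degree of freedom 9.41 to 46.7).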

Additional observations from a re-analysis of the deposited data

Results flagged for a closer look

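In 7 of 27 groups of 5 libraries examined for the 10 genes, 1 library lay far from the other 4 by Dixon's test at the 95% level, where chance gives about 1 in 20 groups of normal values. That rate does not hold for groups with 4 libraries at 0, such as VCAM1 and ICAM1 here, where any other value is set apart. In liver CD8α high NK cells, pig 1 stood apart for VCAM1, at 18.3 CPM against 0 in the other pigs, and for THY1, at 25.9 CPM against 0 to 5.27 CPM. In the same population, pig 5 stood apart for CD200 at 1.91 CPM, which is 8 counts, and pig 2 for CD99 at 127 CPM, below the 191 to 206 CPM of the others. Blood NK cells of pig 5 had 5.46 CPM of CD200R1 against 0 to 0.542 CPM in the other pigs, and those of pig 3 had 1.63 CPM of ICAM1, which is 6 counts, against 0. Among lrNK cells, CD99 in pig 3 was at 208 CPM against 88.5 to 115 CPM. That lrNK library was the lowest of its population for 4 of the 10 genes and the highest for 2.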

How the results depend on the processing

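Of 329 alternative fitted values for the 8 genes tested, 304 kept their direction and their side of the threshold, 11 lost the call, 7 gained it and 7 changed sign. Most of these values belong to differences that were not called in the main fit and had no call to lose. Of the 11 lost calls, 5 were among the fits of CD200R1 between lrNK and liver CD8α high NK cells. The count of the 10 genes called between lrNK and blood NK cells was 5, and 3 to 6 when a pig or library was left out (3 without pig 1 and without pig 2). These counts include ICAM1 where it passed the filter. Between lrNK and liver CD8α high NK cells it was 3, and 5 with the pig as a block, 5 with no filter on low counts and 2 to 6 when a pig or library was left out. Of the further adhesion genes, 1 was called against blood, 3 with no filter, 0 in a fit of only the 2 populations compared and 0 to 2 when a pig or library was left out. In the liver comparison this count was 1, 0 in the fit of 2 populations and 0 to 2 when one was left out. Among the 8 genes fitted, the pairing by pig changed the calls of VCAM1 and CD99 given above and no other, and the exact permutation p of ICAM1 rose to 0.125. These changes of sign were all between liver CD8α high and blood NK cells and near 0. ICAM2 was at -0.031 with the block, -0.0010 with DESeq2, -0.0018 with DESeq2's size factors and -0.36 to 0.46 when a pig was left out. With a pig left out, ICAM3 ran from -0.29 to 0.065 and ALCAM from -0.75 to 0.11, both with the sign changed without pig 4, and the ICAM1 difference ran from -0.26 to 0.084, with the sign changed without pig 3. The cause of these changes was not tested. Over all genes, calls between liver CD8α high and blood NK cells numbered 7, and 24 with DESeq2, 18 with no filter, 16 in the fit of 2 populations, 4 with a robust dispersion and 0 to 12 when a pig or library was left out (0 without pig 2). Few counts per library limit what can be said of ICAM1, CD200, CD200R1 in blood, ICAM2 and PECAM1.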
